A study of Mus musculus with 24 samples.

Results

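The genes described here are 7 members of the 2-cell-like (2C-like) programme of mouse embryonic stem cells, namely Zscan4c, Zscan4d, Zscan4f, Tcstv1, Tcstv3, Zfp352 and Tmem92. They were found by matching the Ensembl identifiers of a gene count table to GENCODE M21. Of the 7, 6 had a row among the 48985 rows of the table, and 3 (Tcstv3, Zfp352 and Tmem92) had at least 1 count in any library. Tcstv1 had no row in the table used here and was not analysed. The counts were made from F121/9 cells, a female embryonic stem cell line that is a hybrid of the strains CAST/EiJ and S129/Sv, grown in 2i and LIF, and each library has a count for the 129S1 and a count for the CAST allele. The 24 libraries form 12 groups of 2 replicates, which the study calls biological duplicates. The 5 groups labelled parental, with the genotype control, belong to the recombinations d3, d6, i7, i12 and i10. The other 7 groups are recombined clones, each line being 1 clone. They are d3 clones 12 and 21, d6 clone 16, i10 clone 18, i12 clone 10 and i7 clones 7 and 12. The study asked how gene expression differed between recombined clones and their parental lines.

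In cultures of mouse embryonic stem cells, a small and changing fraction of cells passes through a state that resembles the 2-cell embryo, in which the transcription factor Dux activates genes that are otherwise silent. Zscan4 proteins are zinc finger factors with a SCAN domain that act at telomeres in this state, Tcstv genes encode small proteins also linked to telomere length, and Zfp352 is a zinc finger gene whose transcripts mark the state together with Tmem92, a gene for a membrane protein. Many genes of the programme lie in clusters of near-identical copies. RNA of bulk cultures was measured here, so fewer cells in the state and less RNA per cell cannot be told apart.

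The Zscan4 copies are shown first because a 75-base read, the read length given in the labels, often cannot be placed in 1 of them. The stretches below are coding bases 722 to 796 of each gene in GENCODE M21 (GRCm38), and capitals mark the bases that differ from Zscan4c.
Zscan4c: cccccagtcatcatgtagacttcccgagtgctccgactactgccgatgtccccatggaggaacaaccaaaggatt
Zscan4d: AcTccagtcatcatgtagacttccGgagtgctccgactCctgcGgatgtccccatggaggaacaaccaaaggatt
Zscan4f: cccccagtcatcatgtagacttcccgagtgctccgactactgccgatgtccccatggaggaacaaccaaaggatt
Zscan4f was identical to Zscan4c over these bases and Zscan4d differed at 5. Over all 1518 coding bases, Zscan4f differed from Zscan4c at 6 and Zscan4d differed from Zscan4c at 35, so that 99.6% and 97.7% were identical. The genes lie on chromosome 7 of GRCm38: Zscan4c (ENSMUSG00000054272.6) at 11005745 to 11010547 on the plus strand, Zscan4d (ENSMUSG00000090714.10) at 11161374 to 11166159 on the minus strand, and Zscan4f (ENSMUSG00000070828.10) at 11397915 to 11402318 on the plus strand.

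The likeness of the copies extends to their promoters, of which 41 bases are shown for each from the RefSeq table for GRCm38.p6. The capitals are the only match to GATTNNATC, the core of a sequence of the kind that Dux binds, which lies here on the opposite strand.
Zscan4c: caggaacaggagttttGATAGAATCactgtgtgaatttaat
Zscan4d: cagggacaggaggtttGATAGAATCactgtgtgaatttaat
Zscan4f: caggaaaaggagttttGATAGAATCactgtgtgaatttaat
They were read at chr7:11005616-11005656 (plus strand), chr7:11166248-11166288 (minus strand) and chr7:11397809-11397849 (plus strand). The match began 113, 124 and 90 bases before the start of the gene in the RefSeq table. For Zscan4d that start is not the GENCODE start given above. Among 32851 promoters of 300 bases, searched on both strands, 1.58% held this motif. Of the other motifs searched, TGCACAC was in 4.4% of all promoters and in none of those of Zscan4c, Zscan4d, Zscan4f and Zfp352. TATAAA was in 13.6% of all promoters and in all 3 of the Zscan4 members. The table matched 4 of the 7 members (the Zscan4 genes and Zfp352), and Zfp352 had no match to GATTNNATC. A match describes letters and is not a measured binding site.

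The Tcstv genes form another group of related copies, on chromosome 13. The stretches below are coding bases 217 to 291, the capitals mark bases that differ from Tcstv3, and AF067061 is added because it is the related copy with the most counts.
Tcstv3: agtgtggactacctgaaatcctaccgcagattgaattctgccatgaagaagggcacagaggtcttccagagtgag
Tcstv1: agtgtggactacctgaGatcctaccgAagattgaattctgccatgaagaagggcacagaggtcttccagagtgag
AF067061: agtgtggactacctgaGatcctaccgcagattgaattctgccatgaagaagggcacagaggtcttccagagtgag
Here Tcstv1 differed at 2 bases and AF067061 at 1. Over 507 aligned coding bases, 94.5% were identical between Tcstv3 and Tcstv1 (28 differences) and 95.9% between Tcstv3 and AF067061 (21 differences). Tcstv3 (ENSMUSG00000095821.2) lies at 120316878 to 120318178 on the plus strand, AF067061 (ENSMUSG00000095071.2) at 120263114 to 120264517 on the plus strand and Tcstv1 (ENSMUSG00000096284.2) at 119893388 to 119894785 on the minus strand. Zfp352 (ENSMUSG00000070902.5) is on chromosome 4 at 90218820 to 90225702 (plus) and Tmem92 (ENSMUSG00000075610.9) on chromosome 11 at 94777217 to 94782703 (minus). None of the 7 genes overlapped another gene of the annotation.

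The share of 75-base windows of a gene's transcripts that occur in no other gene's transcripts was computed for each member. It was 16.6% for Zscan4f (324 of 1946 windows), 21.4% for Zscan4c (471 of 2202) and 60.5% for Zscan4d (1330 of 2198). It was 85.7% for Tcstv3 (604 of 705), 93.1% for Tcstv1, 97.1% for Zfp352 and 99.2% for Tmem92. The 3 members with counts therefore had a larger share of such windows than the 3 members at 0, while Tcstv1, which had no row, stood between Tcstv3 and Zfp352. As background, of the annotated protein-coding genes with 10 to 50% such windows, 55.6% had a row in the table and 27.7% of those rows were at 0. Of genes with 50 to 90%, the class of Zscan4d and Tcstv3, 85.9% had a row and 29.1% of those rows were at 0. Of genes with at least 90%, 99.3% had a row and 14% of the rows were at 0. The windows were compared as exact matches between reference transcripts. Strain variants, mismatched reads and genomic copies outside transcripts were not considered, so the shares may overstate how well reads can be placed. How reads that fit several genes were counted is not given in the sources used here.

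**Figure D1:**
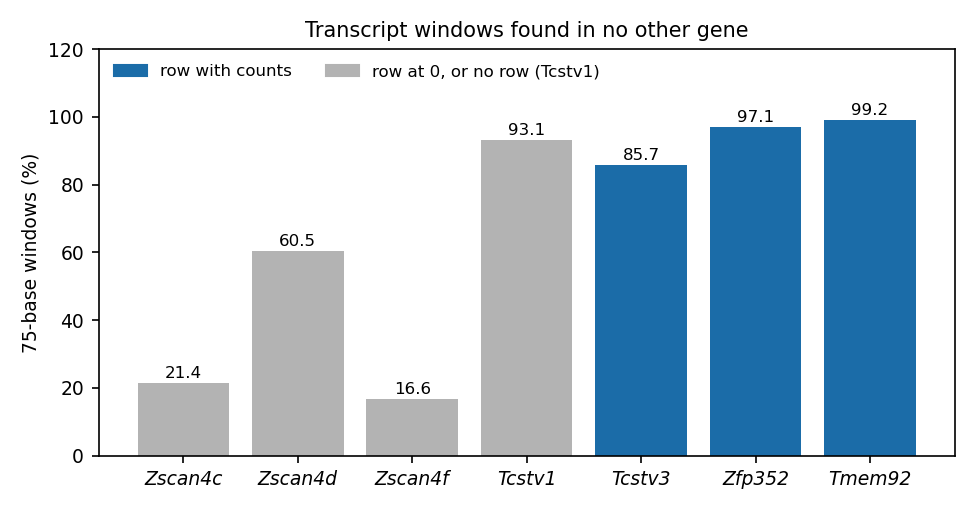
Bars give, for each of the 7 members on the x axis, the percentage of 75-base transcript windows found in no other gene's transcripts (y axis). The 3 members with counts (blue) stand at 85.7 to 99.2%, and the 3 Zscan4 members, whose rows are at 0, at 16.6 to 60.5% (grey, with Tcstv1, which had no row).

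Zscan4c, Zscan4d and Zscan4f were at 0 counts in all 24 libraries and on both alleles. The other 6 genes and pseudogenes of the cluster in the list (Zscan4a, Zscan4b, Zscan4e, Zscan4-ps1, Zscan4-ps2 and Zscan4-ps3) were at 0 as well. A floor of 3 counts corresponds to 0.193 CPM (counts scaled to the total of the library) in the deepest and 0.913 CPM in the shallowest library, and to 0.0140 CPM over all libraries together. A level under these limits was not detectable for reads that were counted. The limits do not cover reads that were not assigned to any copy or to either allele. The sources used here do not say how reads without a variant between the strains were counted. Over the whole table, 38% of rows had no count in any library.

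The libraries themselves held 3286819 to 15581094 counts, with the 6 d3 libraries at 10383315 or more and the 8 libraries of i12 and i10 at 6920899 or fewer. Naive pluripotency markers (Pou5f1, Nanog, Sox2, Esrrb, Klf4, Tfcp2l1, Tbx3 and Zfp42) summed to 6192 to 8676 CPM in every library and all 8 had counts, so the labelled stem cell identity had its markers. Samples with the same replicate number deviated together within a recombination (r over genes from 0.36 to 0.69 in 9 pairs of groups), and in d3 28.6% of 16253 tested genes differed between replicate 2 and replicate 1. Counts of the members have to be read beside that difference.

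Tcstv3 had 108 counts in all, spread over 15 libraries. In d3, replicates 1 and 2 had 39 and 9 counts (parental), 15 and 0 (clone 12) and 18 and 1 (clone 21). In d6 they had 3 and 1 (parental) and 8 and 1 (clone 16). In i7 they had 0 and 3 (parental), 0 and 2 (clone 7) and 3 and 3 (clone 12). In i12 both lines had 0 and 1, and the 4 i10 libraries had 0. The highest library was replicate 1 of the d3 parental line, at 3.18 CPM (95% exact Poisson interval 2.26 to 4.35), and the 3 replicate 1 libraries of d3 (0.963 to 3.18 CPM) stood above all 18 libraries of the other recombinations. The replicate 2 libraries of d3 (0 to 0.867 CPM) overlapped the others, which reached 0.592 CPM in replicate 1 of d6 clone 16.

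Summed over the libraries of a recombination, Tcstv3 stood at 1.11 CPM in d3 (interval 0.881 to 1.37) and 0.336 CPM in d6 (interval 0.179 to 0.575). The level was 0.171 CPM for i7 (0.0854 to 0.306), 0.105 CPM for i12 (0.0127 to 0.379) and 0 for i10 (up to 0.21). These intervals and the floors cover counting error only, and the reads carry no described molecular identifiers. The d3 interval lay above the other 4, while each neighbouring pair after it (d6 and i7, i7 and i12, i12 and i10) overlapped. The d3 libraries held 5.94 times the level of the other recombinations together (interval 3.78 to 9.63), and at least 6.49-fold that of i10 at a floor of 3 counts over the group. Without replicate 1 of the d3 parental line, which held 39 of the 82 d3 counts, the ratio to the other recombinations was 3.74 (2.24 to 6.33).

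Zfp352, the zinc finger gene, had 24 counts, of which 23 were in d3. In d3, replicates 1 and 2 had 8 and 4 counts (parental), 5 and 1 (clone 12) and 5 and 0 (clone 21). The only other count was in replicate 2 of the d6 parental line. The d3 libraries ran from 0 to 0.652 CPM and replicate 2 of clone 21 (0) overlapped the libraries outside d3. The summed level was 0.311 CPM in d3 (interval 0.197 to 0.466) against 0.00716 CPM (0.000181 to 0.0399) in the 18 other libraries, a ratio of 43.4 with an interval of 7.04 to 1786 that rests on 1 count. Against i7, where 6 libraries were at 0, d3 was at least 6.65-fold higher at a floor of 3 counts over the group.

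Tmem92 had 29 counts in 10 libraries and was the member least tied to d3. In d3, replicates 1 and 2 had 5 and 3 counts (parental), 2 and 2 (clone 12) and 0 and 4 (clone 21). In i7 the parental line had 0 in both replicates, clone 7 had 3 and 0, and clone 12 had 2 and 6. Replicate 1 of d6 clone 16 and replicate 1 of the i12 parental line had 1 count each, and the i10 libraries had 0. The highest library, replicate 2 of i7 clone 12 (0.453 CPM), was outside d3, and the d3 and i7 libraries overlapped. The d3 to i7 ratio was 1.26 (interval 0.55 to 3.01).

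On a scale that takes length into account, the summed d3 level of Tcstv3 was 1.42 RPKM (CPM per kilobase of the gene's merged exons). It was 0.136 RPKM for Zfp352 and 0.0988 RPKM for Tmem92. How much of each gene can be assigned to an allele was not measured, and this scale does not correct for it. Tcstv3 was the highest of the 3, and the counting intervals of Zfp352 (0.197 to 0.466 CPM) and Tmem92 (0.123 to 0.351 CPM), genes of nearly equal length, overlapped. The largest member count in a library was 39, so the values of single libraries are imprecise.

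**Figure D2:**
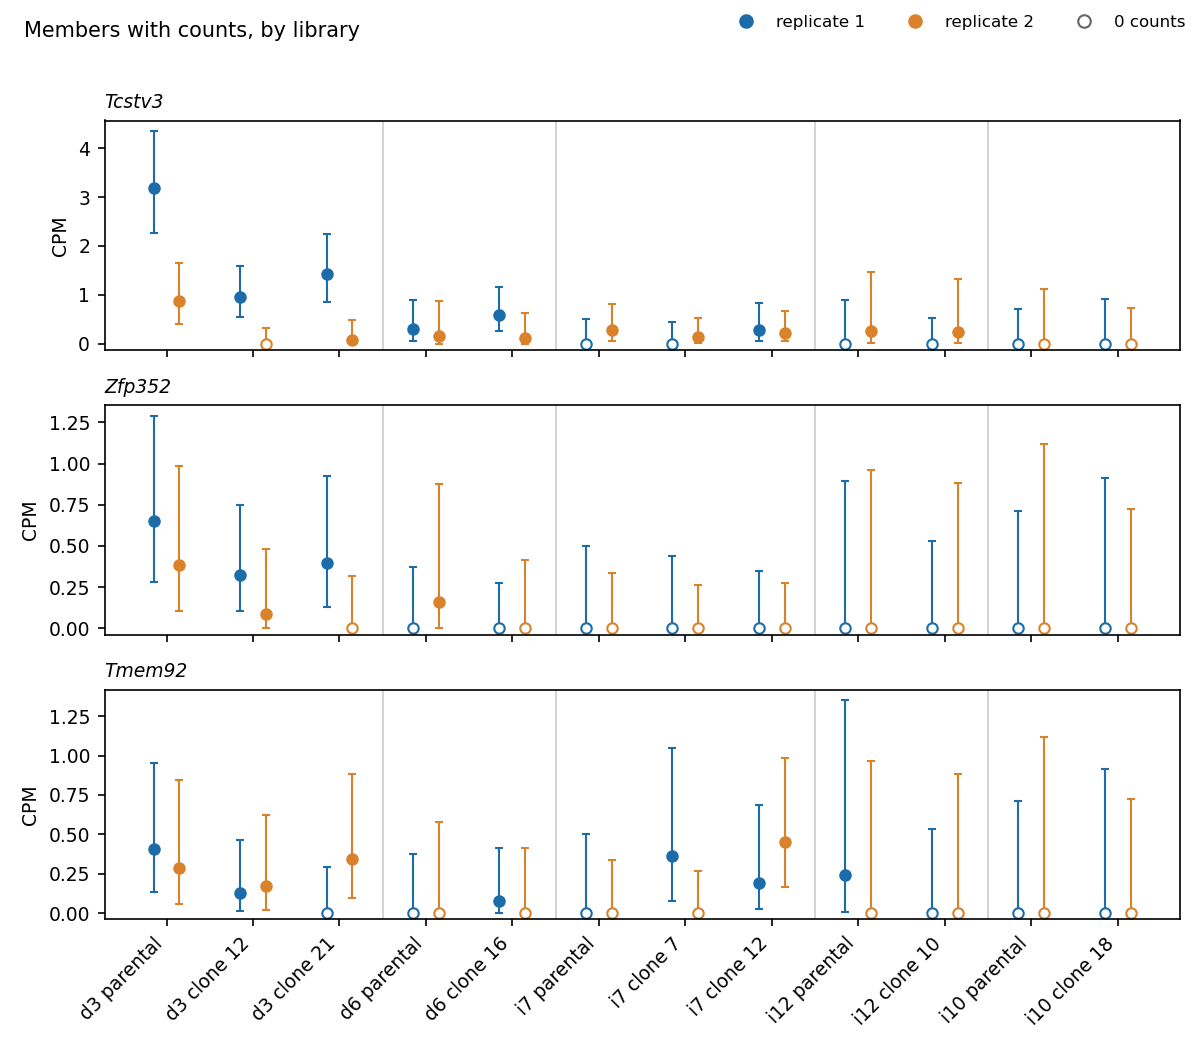
Points give the CPM (y axis) of the 3 members with counts in each of the 24 libraries (x axis, 2 replicates per line), with 95% exact Poisson intervals and open points at 0 counts. Tcstv3 reaches 3.18 CPM and Zfp352 0.652 CPM in replicate 1 of the d3 parental line, while Tmem92 is highest at 0.453 CPM in i7 clone 12.

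Each clone was then compared with its parental line in 1 edgeR quasi-likelihood fit of all 24 libraries over 16253 genes. Of the members only Tcstv3 passed the filter on low counts, through the d3 libraries in which it is high. Zfp352 and Tmem92, with means of 1 and 1.21 counts per library, did not. Tcstv3 was called in none of the 7 comparisons (Benjamini-Hochberg adjusted p under 0.05). The share of all tested genes that was called was 0.0123% and 0.0554% for the d3 clones 12 and 21, 0.0123% for d6 clone 16 and 0.0246% for i7 clone 12. It was 0% for i7 clone 7, i12 clone 10 and i10 clone 18, so an absence of calls was the common outcome.

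In d3, the parental line had more Tcstv3 than either clone in each replicate: 39 against 15 and 18 counts in replicate 1, and 9 against 0 and 1 in replicate 2. Across replicates the ranges overlapped. The SE given with an edgeR log2 change was derived from the statistic of its test. The log2 change was -1.96 in clone 12 (SE 1.15, edgeR adjusted p = 0.996, unadjusted 0.109) and -1.40 in clone 21 (SE 1.12, adjusted p = 1, unadjusted 0.229). With the replicate number as a block, the errors were smaller: -2.14 (SE 0.647, edgeR adjusted p = 0.249, unadjusted 0.00496) and -1.54 (SE 0.621, adjusted p = 0.383, unadjusted 0.0259). Neither fit called Tcstv3, and the fit with the block called 0.0123% of all genes in clone 12 and 0.123% in clone 21. In the fit with the block, 16.1% and 12.6% of all genes had an unadjusted edgeR p under 0.05 for clones 12 and 21. Both clones were compared with the same parental libraries. By DESeq2 the Tcstv3 changes were -2.04 (SE 1.81) and -1.41 (SE 1.8), with adjusted p of 1 for both.

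In the other recombinations the Tcstv3 counts were 8 or fewer per library and the errors larger than the changes. The log2 change was 0.60 in d6 clone 16 (SE 1.56), 0.69 in i7 clone 12 (SE 1.71), -0.75 in i7 clone 7 (SE 2) and -0.37 in i12 clone 10 (SE 2.9), with an edgeR adjusted p of 1 in each. For i10 clone 18 no change could be estimated, because the 4 libraries of i10 were at 0. For the same reason no change averaged over the 5 recombinations could be estimated, in a comparison that called 0.0123% of all genes. Without the filter, Zfp352 and Tmem92 were also tested, and neither was called. Their log2 changes in d3 were -1.25 (SE 1.28) and -1.18 (SE 1.35) in clone 12, and -1.34 (SE 1.31) and -1.06 (SE 1.36) in clone 21, in a fit that called 0.0823% and 0.0494% of all genes for these clones. Tmem92 in i7 clone 12, with 2 and 6 counts against 0 and 0, had an unadjusted p of 0.0355 and an edgeR adjusted p of 0.907 there, where 0.405% of genes were called. The duplicates come from 1 parental line and 1 clone each, so these p-values measure the spread between duplicates and not between independent clones.

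**Figure D3:**
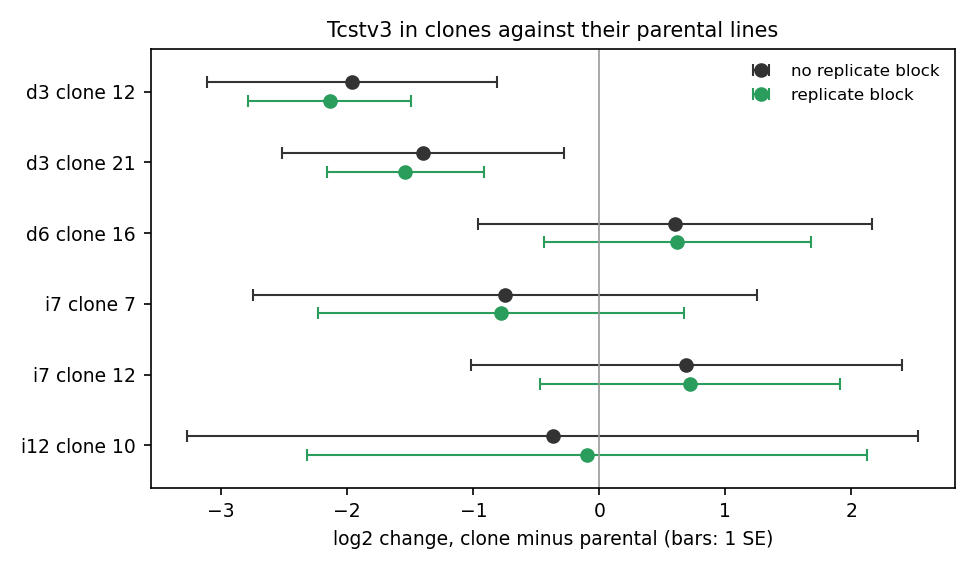
Points give the log2 change of Tcstv3 (x axis, clone minus parental, bars of 1 SE) in the 6 clone comparisons in which it could be estimated (y axis), without (black) and with (green) the replicate block. The changes run from -1.96 to 0.69 without the block, and none was called in either fit.

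The 5 parental lines, which carry no recombination, were compared in a joint test as the background. Tcstv3 counts in replicates 1 and 2 were 39 and 9 in d3, 3 and 1 in d6, 0 and 3 in i7, 0 and 1 in i12 and 0 and 0 in i10. Both d3 libraries were above all others. Tcstv3 had an edgeR adjusted p of 0.131 (unadjusted 0.0234) and was not called, where 6.64% of all genes were. With the replicate block, which uses the pairing of the libraries, its adjusted p was 0.00132 and it was called, as were 42.3% of all genes. Tcstv3 was in both fits only because of its counts in the d3 libraries, so these calls are no separate support for a high level in d3. Without the filter on low counts it was called too (adjusted p = 4.78e-05, where 11.9% of 30383 genes were called), while Zfp352 (adjusted p = 0.171) and Tmem92 (adjusted p = 0.32) were not.

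The replicates of d3 were also compared with each other, a comparison chosen after the data had been seen and after the filter had kept Tcstv3 for its counts in d3. The values below therefore describe a difference already chosen for its size. The 3 replicate 1 libraries held 72 Tcstv3 counts (1.78 CPM) and the 3 replicate 2 libraries 10 (0.298 CPM), a ratio of 5.98 (interval 3.07 to 13), or 3.93 (1.89 to 8.95) without replicate 1 of the parental line. In the fit with the block, Tcstv3 fell by 2.64 on the log2 scale from replicate 1 to replicate 2 (SE 0.589, edgeR adjusted p = 0.00423), in 3 of 3 lines, and without the filter by 2.66 (SE 0.609, adjusted p = 0.000227). Among all genes, 28.6% were called in this comparison and 14.1% as lower, so a call was common there. Left out in turn, the replicate 1 libraries of d3 gave -4.43 (adjusted p = 0.00172, without that of the parental line) to -2.31 (adjusted p = 0.0135).

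In the other recombinations the replicates of Tcstv3 were not called different. The log2 difference, replicate 2 minus replicate 1, was -1.74 in d6 (SE 1.17, edgeR adjusted p = 0.328, with 19.6% of all genes called) and 0.90 in i7 (SE 1.08, adjusted p = 0.745, with 4.31% called). The d3 difference minus that of i7 was -3.54 (SE 1.26, adjusted p = 0.0681) and was not called, where 17.1% of genes were. Without the filter it was called (adjusted p = 0.045, where 10.1% of genes were). The d3 difference minus that of d6 was -0.90 (SE 1.7, adjusted p = 0.875), in a comparison that called 0.369% of genes. Zfp352 had 18 counts in the replicate 1 and 5 in the replicate 2 libraries of d3, a ratio of 2.99 (1.07 to 10.3), and Tmem92 had 7 and 9. Neither was called in the fit without a filter (adjusted p = 0.556 and 0.844), which called 15.7% of genes.

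Summed levels of markers of other cell types also differed between the d3 replicates. The summed level of primitive endoderm markers (Gata6, Gata4, Sox17, Pdgfra, Sox7 and Dab2, all 6 with counts) was 10.4 to 12.1 CPM in replicate 1 of d3, 4.14 to 4.75 in replicate 2 and 3.36 to 12.4 in the other libraries. Most counts of this list were of Dab2 (803) and Gata4 (468), against 21 to 158 for each other marker. The 5 markers of primed or early differentiating cells (Fgf5, Otx2, Dnmt3b, T and Mixl1) summed to 245 to 258, 127 to 152 and 41.3 to 252 CPM. Of their counts, 27769 were of Dnmt3b and 4449 of T, against 6 to 232 for each of the other 3, so that sum is mostly Dnmt3b. The 6 trophectoderm markers (Cdx2, Eomes, Elf5, Tfap2c, Gata3 and Krt8) summed to 59.4 to 62.5, 92.8 to 105 and 73.3 to 186 CPM, and the fibroblast markers to 7.21 to 11.2, 15.8 to 20.3 and 3.96 to 25.2 CPM, with S100a4 at 0. The sums were likewise mostly of 1 gene, with 14933 trophectoderm counts of Tfap2c (next was Krt8 with 3246) and 2465 fibroblast counts of Thy1 (next was Col1a1 with 341). The 4 germline markers (Dazl, Ddx4, Mael and Sycp3) summed to 39.7 to 50.2 CPM in replicate 1 of d3, 31.4 to 50.7 in replicate 2 and 10.2 to 34.7 elsewhere. This sum was mostly Dazl, with 4219 counts (next was Ddx4 with 1288). The germline sums did not separate the d3 replicates, but their medians of 44 and 44.1 CPM in d3 stood above the 19.4 CPM of the other libraries. The recombination d3 is also the one in which Tcstv3 and Zfp352 were high. Summed naive markers were 7298 to 7592 CPM in replicate 1 and 7462 to 8187 in replicate 2 of d3. A sum of markers does not show that cells of that type were present. Whether such cells had a part in the differences of Tcstv3 and Zfp352 was not tested.

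In the fit without the block, where the difference between d3 replicates counts as spread, Tcstv3 had a biological coefficient of variation (the spread beyond counting error) of 0.87. The trend for genes of its abundance was 0.426, and 99.5% of all tested genes, whatever their abundance, had a lower value. For AF067061 and Gm8300, described next, it was 0.671 and 0.63, against trends of 0.404 and 0.352.

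Other genes of the programme were taken from a list of 34. Of these, 23 had a row, 14 of the 23 were at 0 in all libraries (the Zscan4 copies, Usp17lc, Usp17ld, Usp17le, Tdpoz2, Sp110, Pramef25, Gm5662 and Gm20767), and 3 passed the filter (Gm8300, AF067061 and Gm8994). Dux, the activator of the programme, had no row under that symbol or as Duxf3. None of the 3 tested genes was called in any of the 7 clone comparisons (edgeR, lowest adjusted p 0.996, lowest unadjusted p 0.129). With the block none was called either. The d3 clones there had an unadjusted edgeR p of 0.00328 and 0.00218 for AF067061 and of 0.00875 and 0.00353 for Gm8300. Among all genes, 16.1% in clone 12 and 12.6% in clone 21 had an unadjusted p under 0.05 in that fit. Both clones were compared with the same parental libraries.

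Gm8300 (ENSMUSG00000079034.2, chromosome 12, 87514316 to 87518266), a gene of a family of eukaryotic initiation factor 1A-like copies, had 754 counts. In d3, replicates 1 and 2 had 224 and 47 (parental), 180 and 17 (clone 12) and 110 and 24 (clone 21). The d6 libraries had 9 to 49, the i7 libraries 6 to 11 and the i12 and i10 libraries 0 to 3. The replicate 1 libraries of d3 stood above all others, and replicate 2 of d3 overlapped d6. The d3 libraries held 7.47 times the level of the other recombinations (interval 6.24 to 8.98).

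AF067061, the relative of Tcstv3, had 264 counts. Its replicates in d3 had 90 and 19 (parental), 49 and 8 (clone 12) and 45 and 4 (clone 21). The d6 libraries had 2 to 18, the i7 libraries 1 to 5, and the i12 and i10 libraries 0 or 1. Its d3 level was 8.27 times that of the other recombinations (6.04 to 11.5), and replicate 2 of d3 again overlapped d6. In the joint test of the parental lines AF067061 (edgeR adjusted p = 0.0251) and Gm8300 (adjusted p = 0.0157) were called, as were 6.64% of all genes. With the block they were called as well (edgeR adjusted p = 8.98e-06 and 4.26e-06), as were 42.3% of all genes. Both fell from replicate 1 to replicate 2 of d3, by 2.33 on the log2 scale for AF067061 (SE 0.326, edgeR adjusted p = 0.000103) and by 2.29 for Gm8300 (SE 0.276, adjusted p = 2.75e-05), in 3 of 3 lines each. In that comparison 28.6% of all genes were called. Both genes were named after their values had been seen, so these calls are no separate support for a high level in d3 or in its replicate 1. Gm8994, a further gene of the list with 1707 counts, was called in neither test (adjusted p = 0.628 for the parental lines and 0.446 for the d3 replicates).

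The deubiquitinase genes Usp17la and Usp17lb, which lie on opposite strands of chromosome 7, had most of their counts in d3 (39 of 54 and 39 of 46). Usp17la had 54 counts, which in d3 were 15 and 5 (parental), 11 and 2 (clone 12) and 5 and 1 (clone 21), with 0 to 6 in the other libraries. Usp17lb had 46 counts, and its d3 counts were 17, 13 and 9 in replicate 1 of the parental line, clone 12 and clone 21, and 0 in all 3 replicate 2 libraries. Replicate 1 of d3 was thus at least 10.8-fold higher than replicate 2 for Usp17lb at a floor of 3 counts over the group. Usp17la and Usp17lb were tested only without the filter, where Usp17lb was called for the d3 replicates (edgeR adjusted p = 0.000489) and Usp17la was not (adjusted p = 0.24). In that fit 15.7% of genes were called for the d3 replicates, and Usp17lb was likewise named after its values had been seen. Ubtfl1, Pramef6 and Arg2 had 13, 8 and 45 counts in all, of which 10, 8 and 22 were in d3.

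**Figure D4:**
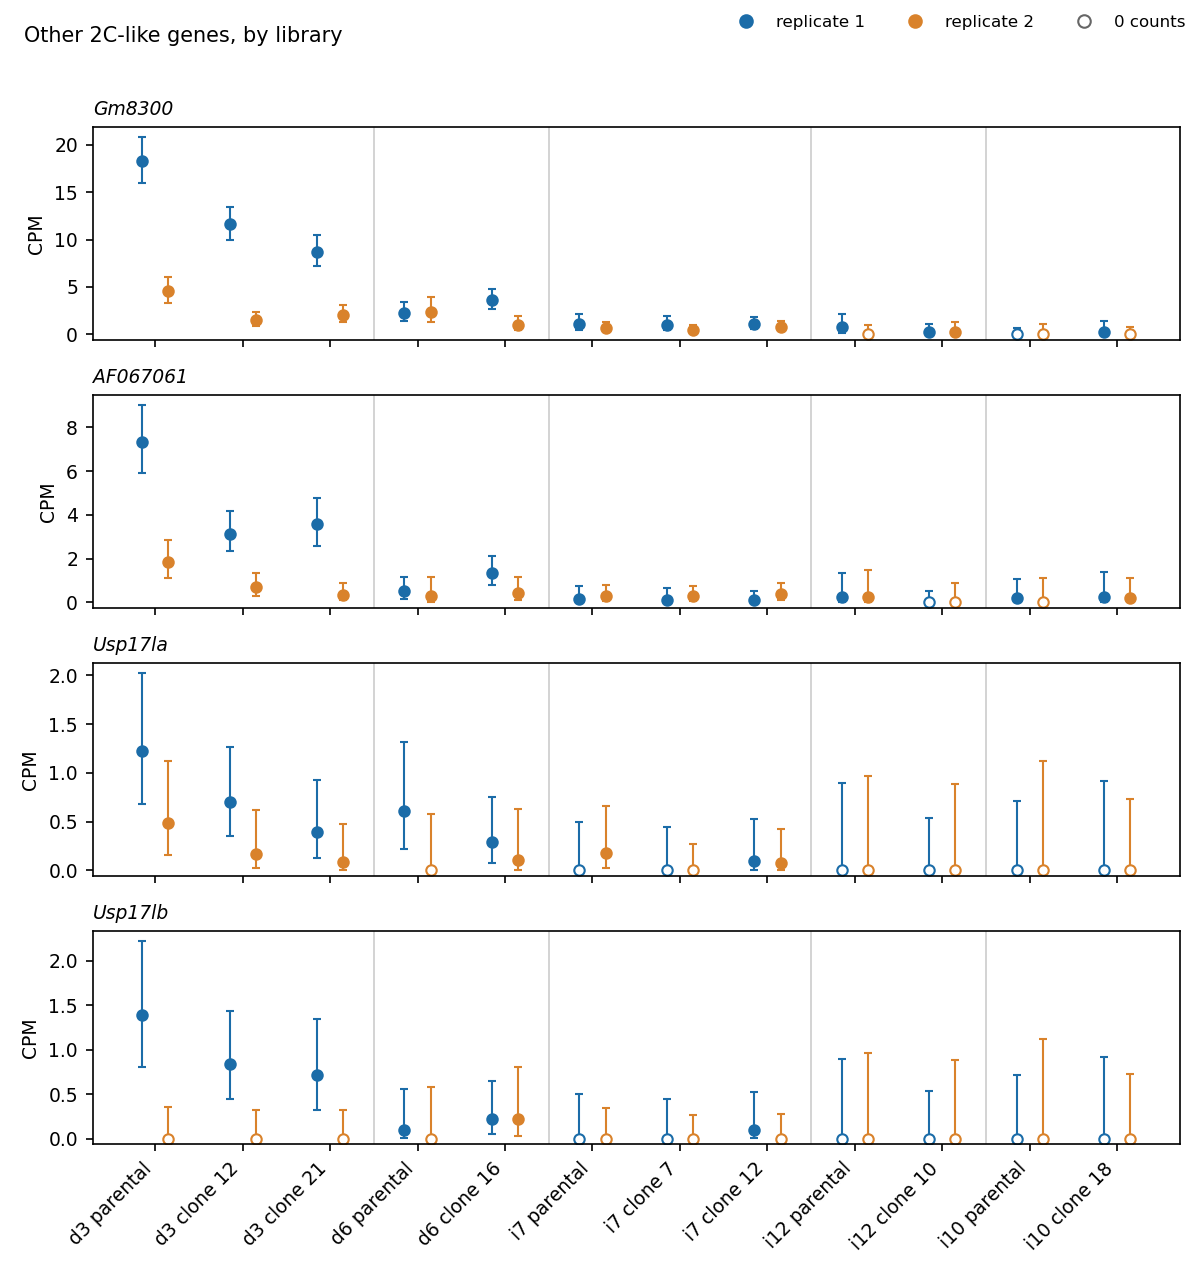
Points give the CPM (y axes) of 4 other genes of the programme in each of the 24 libraries (x axis), with 95% exact Poisson intervals and open points at 0 counts. Gm8300 and AF067061 are highest in replicate 1 of the d3 lines, at 18.3 and 7.34 CPM in the parental line, and Usp17lb is at 0 in all 3 replicate 2 libraries of d3.

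Regulators of the entry to or the exit from the state were taken from a list of 32 genes, all of which were tested. They include Dppa2 and Dppa4, which activate Dux, and repressors such as Trim28, Chaf1a, Kdm1a, Ehmt2 and Setdb1. In the 7 clone comparisons 0 of 32 were called (edgeR), with medians of log2 changes from -0.17 in d3 clone 21 to 0.14 in i7 clone 12. With the replicate block 1 of 32 was called, Lin28a, which rose in i7 clone 12 (log2 change 1.04, SE 0.128, edgeR adjusted p = 0.000262, where 6.27% of genes were called). Among the parental lines Dppa2 was the only one called, against 6.64% of all genes. Between the d3 replicates 8 of 32 were called, where 28.6% of all genes were. They were Chaf1b, Dppa2, Dppa3, Lin28a, Setdb1, Tet2, Trp53 and Yy1, and 2 of them were higher and 6 lower in replicate 2. The share of called regulators was not above that of all genes.

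The division of the counts between the alleles differed from gene to gene. Over all rows, the 129S1 column held 49.5 to 52.4% of a library's counts. Tcstv3 had 13 counts on 129S1 and 95 on CAST, so 12% were on 129S1 (95% exact binomial interval 6.57 to 19.7%). These intervals take the reads of all libraries as independent and cover counting error only. The share was 13.4% in d3 (11 of 82) and 7.69% in the other recombinations (2 of 26), and CAST had more counts than 129S1 in each of the 15 libraries with counts. The largest single contribution was 36 CAST and 3 129S1 counts in replicate 1 of the d3 parental line. Zfp352 had 15 on 129S1 and 9 on CAST (62.5%, interval 40.6 to 81.2%), which did not separate it from an even division.

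Tmem92 had 22 counts on 129S1 and 7 on CAST (75.9%, interval 56.5 to 89.7%). The 129S1 column held 11 of 11 counts in i7 and 10 of 16 in d3, where replicate 1 had 2 on 129S1 and 5 on CAST and replicate 2 had 8 and 1. These numbers are too small for the comparison of allele ratios, which needed a mean of 10 counts or more on each allele. None of the members entered it, so no allelic change in a clone was tested for them.

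The relatives divided in opposite ways. AF067061 had 260 counts on 129S1 and 4 on CAST (98.5%, interval 96.2 to 99.6%), whereas Tcstv3, with 95.9% of its coding bases in common, had 88% on CAST. Usp17la had 54 of 54 counts on 129S1, and Usp17lb had 41 of 46 on CAST. Gm8300 had all of its 754 counts on 129S1. Among protein-coding genes with at least 20 counts, more than 85% of counts on 1 allele were found in 10% of those with at least 90% of windows in no other gene. The figure was 30% for genes with 50 to 90% such windows and 26.9% for those with 10 to 50%. By this measure AF067061 (95.2%) and Usp17la (92.3%) belonged to the first class, and Tcstv3 (85.7%), Usp17lb (85.1%) and Gm8300 (83.4%) to the second. Near-identical copies limit which allele and which copy a read is assigned to. Whether the divisions reflect expression of the alleles or the assignment of reads was not tested.

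**Figure D5:**
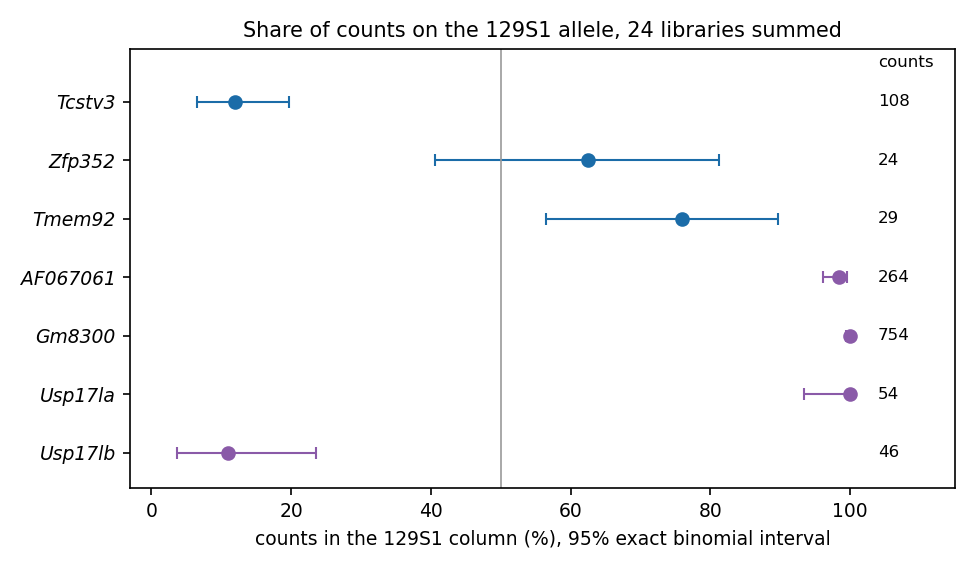
Points give the share of counts in the 129S1 column (x axis, %, with 95% exact binomial intervals) over the 24 libraries for the 3 members with counts (blue) and 4 relatives or further genes of the programme (purple), with the number of counts at the right. Tcstv3 at 12% and Usp17lb at 10.9% lie on the CAST side, and AF067061, Gm8300 and Usp17la at 98.5 to 100% on the 129S1 side.

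The genes whose pattern over the 24 libraries was most like that of the summed member counts were ranked by Pearson's r of log2 CPM among 12774 genes whose mean count was 20 or more. The 10 highest were Pim2 (r = 0.813), Bbs2 (0.806), Gm8300 (0.801), Zfp219 (0.772), Abhd5 (0.751), Lysmd2 (0.750), Popdc3 (0.746), Sapcd2 (0.745), Hspb1 (0.745) and Spns1 (0.743). All of them had their highest mean in replicate 1 of d3, such as Pim2 with 42 CPM against 23.9 in replicate 2 of d3 and 16.2 elsewhere. These correlations describe libraries that share recombination, replicate number and depth. With a prior count of 5 in place of 1, 3 of the 10 were still among the first 10, and with the mean of each recombination subtracted 1 was. Gm8300 ranked at place 3, 3 and 12 under the 3 measures.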

How the data were processed

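RNA was measured in 24 libraries of F121/9 embryonic stem cells. Stranded libraries from poly(A) RNA were read from a single end over 75 bases, per the labels' protocols. The submitters' processing notes name STAR, SAMtools and mm10, and the counting program is not given in the sources used here. The deposited values are raw read counts per gene and allele, and both alleles were added. Of 48985 rows, 48838 matched GENCODE M21 without the version number.

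The members and gene lists were chosen with earlier results of these data known. Counts were tested with edgeR 4.0.16 in R 4.3.3 (TMM normalisation, filterByExpr on the 12 groups, quasi-likelihood test, Benjamini-Hochberg adjustment over 16253 genes, calls at an adjusted p under 0.05), with 1 coefficient per group and 12 residual degrees of freedom. Another fit added a replicate term per recombination (7 degrees of freedom). The SE of an edgeR log2 change was its absolute value divided by the square root of the F statistic of the quasi-likelihood test. Replicate numbers, taken from the labels, were held to pair the samples because same-numbered libraries deviated together in each of 9 pairs of groups (r from 0.36 to 0.69). The rule for names took all 7 members, genes of the lists called in a clone comparison, and the 10 genes most like the summed members. Other genes of the programme were named after their values had been seen.

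Summed counts have 95% exact Poisson intervals, shares of alleles have 95% exact (Clopper-Pearson) intervals, and 3 counts were taken as the floor. The test was tried on simulated data. Alternatives used DESeq2 1.42.0 as a test and for size factors, other filters, single alleles, copies added, the libraries of a recombination alone, and libraries left out in turn. The rest was done in Python 3.11.15 (scipy 1.17.1, pandas 2.3.3, matplotlib 3.10.9 and numpy 2.4.6).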

Additional observations from a re-analysis of the deposited data

Results flagged for a closer look

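AF067061, the relative of Tcstv3, differed in its replicate difference between d3 and i7. Replicate 2 minus replicate 1 was -2.33 on the log2 scale in d3 (SE 0.326, lower in 3 of 3 lines) and 1.35 in i7 (SE 0.775, higher in 3 of 3 lines). The d3 difference minus the i7 difference was -3.68 (SE 0.834, edgeR adjusted p = 0.00765), and 17.1% of all tested genes were called in that comparison. The i7 counts behind it were 1, 3, 1, 4, 1 and 5.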

How the results depend on the processing

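Counts of called members were recomputed under 134 alternatives, of which 130 were equal to the reported count. The 65 in the 7 clone comparisons were among these, and the replicate block changed no call there. The 4 that differed were all of the joint test of the parental lines, where 1 member (Tcstv3) was called in place of 0 without the filter, with the replicate block, and with the block but without d3 parental replicate 1 or replicate 2. The cause was not tested. The 130 unchanged counts are not 130 separate checks. They include the i10 clone comparison and the averages over the recombinations, in which no change could be estimated. An absence of calls there says nothing about a change. Adding the copies repeated the Tcstv3 values of the main fit, since Tcstv1 had no row and the Zscan4 rows were at 0. AF067061 was not among the copies added, so this alternative was no separate check. Except in the fits without the filter, the counts rest on Tcstv3 alone. With 1 library left out, the log2 change of Tcstv3 ran from -2.57 to -0.78 in d3 clone 12, -4.40 to -0.23 in d3 clone 21, -1.05 to 1.22 in d6 clone 16, -1.50 to -0.12 in i7 clone 7, -0.05 to 0.86 in i7 clone 12 and -1.34 to 0.86 in i12 clone 10, without a call. It took the other sign without replicate 1 of d6 clone 16 (-1.05), of the i7 parental line (-0.05) or of i12 clone 10 (0.86). A further 6 such fits left a line at 0 counts, so that their fitted changes depend on the prior count, and they are not among these ranges. A line left with 1 library was assumed to vary like the others. Under a stricter filter, or with 129S1 or CAST counts alone, no member was tested. DESeq2 was not run for the joint test. At a largest member count of 39 in a library, depth limits every member, and most in i12 and i10.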

Other observations

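Among the 32 regulators, Zmym2, which encodes a zinc finger repressor of the 2C-like state, had no 129S1 count in d3 clone 21. Its 129S1 and CAST counts were 164 and 267 and then 84 and 146 in the parental replicates, 221 and 326 and then 214 and 310 in d3 clone 12, and 0 and 550 and then 0 and 520 in d3 clone 21. The summed level was 43.6 and 44.7 CPM in clone 21 against 35.1 and 22.2 CPM in the parental line. Over all 24 libraries it ran from 22.2 to 45.7 CPM with a median of 35.3 CPM. Parental replicate 2 was thus the lowest library, and the level of clone 21 was not particular to it. The summed level was not called in clone 21 with or without the replicate block. The allele ratio of Zmym2 was called in clone 21 (edgeR adjusted p = 2.95e-13), where 3.4% of 10795 genes were called. Whether these included neighbours of Zmym2 on chromosome 14 was not examined here. The log2 change of Tcstv3, called in neither clone, was -1.40 in clone 21 (SE 1.12) and -1.96 in clone 12 (SE 1.15). A link between Zmym2 and the level of Tcstv3 was not tested.

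In i7 clone 12 the share of 129S1 counts of Pcgf6, a subunit of a Polycomb complex, was lower than in the parental line. It had 741 and 885 counts on 129S1 and 1233 and 1515 on CAST, against 589 and 889 and against 492 and 858 in the parental line, a log2 change of the ratio of -0.90 (SE 0.149, edgeR adjusted p = 0.00084, where 2.33% of genes were called). Whether neighbours of Pcgf6 on chromosome 19 changed their allele ratio as well was not examined here. Lin28a, an RNA-binding protein gene, was at 479 and 437 CPM in i7 clone 12 against 225 and 241 CPM in the parental line. It was called with the replicate block and not without it. In the same comparison and fit, 3 of the cell type markers were called, where 6.27% of genes were. They were T of the primed list (log2 change 1.76, edgeR adjusted p = 0.000328), Krt8 of the trophectoderm list (0.88, adjusted p = 0.028) and Thy1 of the fibroblast list (0.66, adjusted p = 0.0319). Of these lists 4, 4 and 2 genes were tested, and each had only this 1 call. No marker of the other lists was called, so the calls do not show a change of cell type. The members had 5 and 9 counts in the libraries of this clone and 0 and 3 in its parental line.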
